A study of Bos taurus with 14 samples.

Results

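The 4 genes described here are bovine beta-defensins, namely the tracheal and lingual antimicrobial peptides (TAP and LAP), DEFB13 and BNBD-9-LIKE. They were found by searching the gene names and descriptions in the scanner files, and each was represented by 1 probe, so that the set held 4 of the 15208 probes on the array that were not controls. The array carried 3 further beta-defensin probes, for BNBD-4, BNBD-5 and enteric beta-defensin (EBD), which are given beside the 4 as the rest of the family. The set had been picked out because its probes were among the largest falls of an earlier analysis of these data, so its fall in granulocytes is a description here and not independent evidence.

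Beta-defensins are short cationic peptides, held together by disulphide bridges, that disrupt the membranes of bacteria, fungi and enveloped viruses and that can also attract immune cells. In cattle the neutrophil peptides (BNBD) are stored in granules, and TAP and LAP were named after the epithelia of the windpipe and tongue. Transcription of TAP and LAP is known to rise in epithelium on contact with bacterial products, through Toll-like receptors and the transcription factor NF-kB.

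The cells came from Bos taurus and were of 2 kinds, granulocytes and bovine endometrial stromal cells (BES). Each kind was kept for 2 h with interferon tau (IFNT), a type I interferon by which the ruminant conceptus signals pregnancy, or, as the control, with phosphate-buffered saline (PBS). The labels put IFNT at 1 mg/mL, which is unusually high for an interferon, and the unit could not be checked here. They name no genotype, breed or age, mark BES as in vitro and granulocytes as in vivo/in vitro, and describe RNA extraction for granulocytes only. Each treatment was given to 3 samples of BES and to 4 of granulocytes, and each sample was hybridised to 1 array. Whether samples of a group were separate animals or cultures is not given, so the errors and p-values measure only the spread between these samples, which may be technical.

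All 6 BES arrays were on 1 slide and all 8 granulocyte arrays on a second slide, so that cell type and slide cannot be told apart. On the granulocyte slide the PBS arrays filled row 1 and the IFNT arrays row 2, so row and treatment cannot be told apart there either. On the BES slide, PBS samples 1 and 2 were in row 1, while PBS sample 3 shared row 2 with the IFNT samples. Between 71.6% and 76.1% of probes were well above background on BES arrays and between 66.4% and 70.9% on granulocyte arrays, and arrays of a group correlated over probes with r of 0.99 or more. Of the neutrophil markers, 12 of 12 on the array were tested in granulocytes. In BES, 6 of these 12 were not well above background on any array, among them the cathelicidins CATHL1, CATHL2 and CATHL3, and the 11 stromal markers on the array were all well above it. The epithelial markers KRT8, KRT19, CDH1 and CLDN3 were also well above background on every BES array. Of the 10 epithelial markers on the array, 9 were tested in BES, and the adhesion molecule EPCAM was not well above background on any.

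The probe sequences are shown because relatives in a gene family can bind each other's probes. Capitals mark runs of at least 12 identical bases shared with another of the 7 beta-defensin probes.
BNBD-9-LIKE: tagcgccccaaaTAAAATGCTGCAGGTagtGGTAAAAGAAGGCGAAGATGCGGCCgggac
DEFB13: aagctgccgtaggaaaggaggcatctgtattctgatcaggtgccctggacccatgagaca
TAP: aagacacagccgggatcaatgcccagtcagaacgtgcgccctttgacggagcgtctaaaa
LAP: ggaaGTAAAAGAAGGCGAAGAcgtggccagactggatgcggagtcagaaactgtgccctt
BNBD-4: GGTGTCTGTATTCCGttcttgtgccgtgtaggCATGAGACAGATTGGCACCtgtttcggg
BNBD-5: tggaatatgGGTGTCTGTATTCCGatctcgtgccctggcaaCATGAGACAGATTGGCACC
EBD: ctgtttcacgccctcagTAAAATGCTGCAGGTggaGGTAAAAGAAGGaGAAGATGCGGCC

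Each probe was 60 bases long with a GC content of 51.7% to 55.0%. The DEFB13 and TAP probes had no such run in common with any other of the 7, and their longest identical runs with one were 9 and 8 bases. With mismatches allowed, DEFB13 still shared 37 of 50 bases with BNBD-5 and 31 of 41 with BNBD-4. TAP shared 30 of 43 with LAP. The BNBD-9-LIKE probe resembled the EBD probe most, with 47 identical bases in an overlap of 55 and a longest run of 15. It also shared a run of 17 bases with the LAP probe, inside an overlap in which 24 of 33 bases were identical. BNBD-4 and BNBD-5 shared 44 of 51 bases, the highest identity among the 21 pairs, and a run of 19. Against the 15201 other probes on the array, the longest identical run was 11 to 15 bases. Probes were compared with each other only and not with whole transcripts, and the part that cross-hybridisation within the family had in the values was not tested. In RefSeq's table of genes for ARS-UCD2.0, TAP, LAP, DEFB13, DEFB4A (the gene of the BNBD-4 probe) and EBD lie on chromosome 27 in that order, with other beta-defensin genes between them. The table gave no match for the BNBD-9-LIKE and BNBD-5 probes. The DEFB13 probe is called BBD(C7), a putative beta-defensin, in the files and was matched to DEFB13 through a synonym. The EBD probe is called DEFB1 there, but its accession belongs to EBD.

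In granulocytes all 4 genes were lower with IFNT than with PBS, by 3.85-fold to 5.67-fold, and no IFNT array reached the level of any PBS array. Levels below are log2 intensities relative to the 75th percentile of the array, so that a level of 0 is the brightness of that percentile, and a level is compared between samples for the same probe only. A change was called where limma's moderated test gave an adjusted p under 0.05 (Benjamini-Hochberg method over all probes tested). All 4 were called lower, against 27.4% of the 10379 probes tested; 17.2% were called higher and 44.6% in either direction. The called falls numbered 2848, with a median log2 change of -0.34. Because the arrays hold bulk RNA, fewer cells that express a gene and less of its RNA per cell cannot be told apart.

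BNBD-9-LIKE, named in the files after the neutrophil beta-defensin BNBD-9, had levels of 5.16, 5.08, 5.39 and 4.96 in the 4 PBS samples and of 2.61, 2.61, 2.73 and 2.63 in the 4 IFNT samples. The groups stood far apart, and the IFNT samples varied less among themselves than the PBS samples did. The mean fell from 5.15 ± 0.18 (SD, n = 4) to 2.64 ± 0.06 (SD, n = 4), a log2 change of -2.50 ± 0.09 (SE), or 5.67-fold (limma, adjusted p = 8.5e-08). In processed intensity the PBS arrays read 36061, 49807, 50742 and 46552 and the IFNT arrays 7332, 7900, 7837 and 7224. The scanner software had taken all 4 PBS readings, and none of the IFNT readings, from its low-gain scan and scaled them up. Of the tested probes, 17 had the same switch of scan between the groups, with a median log2 change of -0.76, while 518 read at low gain on all 8 granulocyte arrays had a median of -0.04. The 17 were picked for being brighter on the PBS arrays, so their lower median follows at least in part from that choice. What the switch adds to the BNBD-9-LIKE fall was not tested. DEFB13, TAP and LAP had no such switch.

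DEFB13, a beta-defensin first described in bovine neutrophils, had levels of 1.82, 1.81, 2.09 and 1.75 with PBS and of -0.55, -0.47, -0.33 and -0.44 with IFNT. Every IFNT sample lay far below every PBS sample. The means were 1.87 ± 0.15 and -0.45 ± 0.09 (SD, n = 4 each), a log2 change of -2.32 ± 0.08 (SE) and a 4.98-fold fall (limma, adjusted p = 1.1e-07).

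TAP, the peptide of the tracheal epithelium, had levels of -0.14, -0.29, 0.20 and -0.18 with PBS and of -2.41, -2.40, -2.29 and -2.42 with IFNT. The PBS samples were all higher, and the IFNT samples lay close together. The mean fell from -0.10 ± 0.21 to -2.38 ± 0.06 (SD, n = 4 each), a log2 change of -2.28 ± 0.10 (SE), or 4.85-fold (limma, adjusted p = 3.9e-07).

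LAP, the peptide of the tongue epithelium, had levels of -0.93, -0.87, -0.52 and -0.97 with PBS and of -3.09, -2.97, -2.43 and -2.58 with IFNT. The groups did not overlap, and of the 4 genes LAP had the widest spread among its IFNT samples. The mean went from -0.82 ± 0.20 to -2.77 ± 0.31 (SD, n = 4 each), a log2 change of -1.95 ± 0.16 (SE), or 3.85-fold (limma, adjusted p = 2.1e-05).

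Among the 2848 called falls, BNBD-9-LIKE, DEFB13, TAP and LAP ranked 2, 3, 4 and 9 by size. Only 100 probes fell by 2-fold or more and were called. Non-overlap alone was common, since 26.8% of 10369 probes had all IFNT arrays below all PBS arrays.

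**Figure D1:**
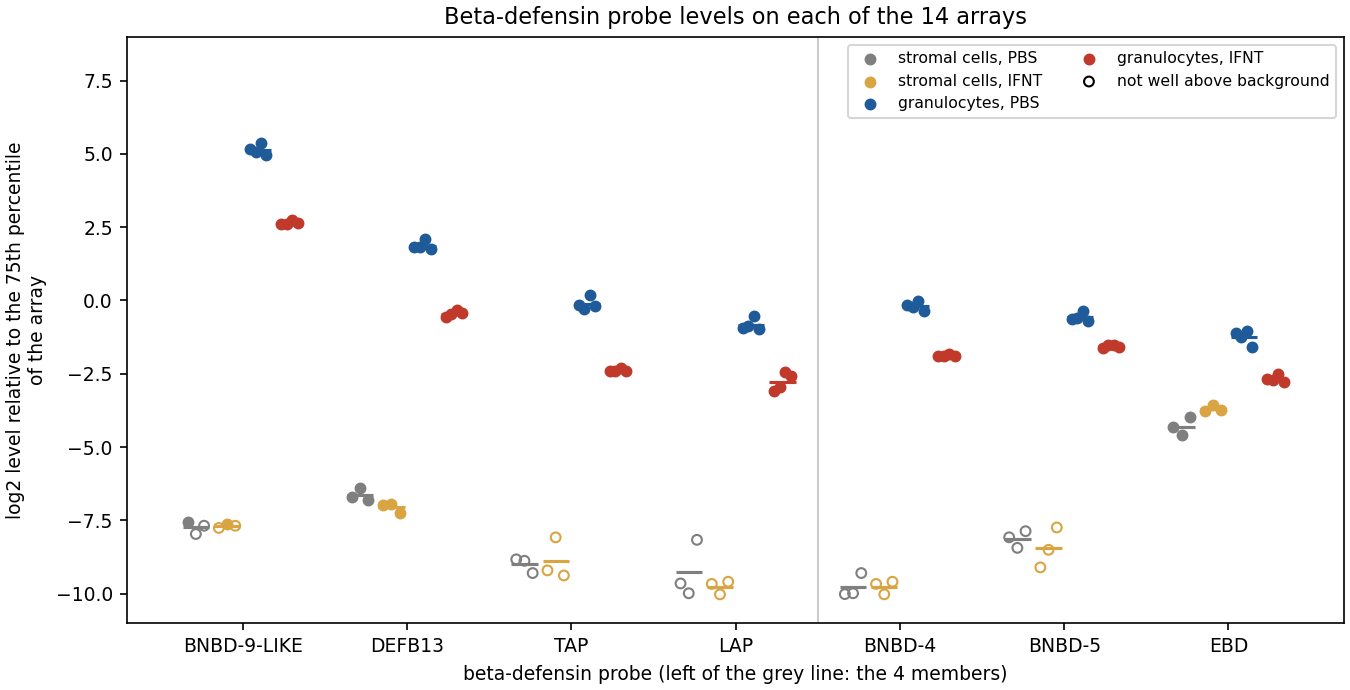
Log2 level relative to the 75th percentile of the array (vertical axis) of the 7 beta-defensin probes on each of the 14 arrays, coloured by cell type and treatment, with group means as short lines and open circles where a spot was not well above background. The IFNT granulocytes lie below the PBS granulocytes for every probe, and in BES the DEFB13 and EBD probes alone were well above background on all 6 arrays; heights of different probes are not comparable.

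The other family members were also lower with IFNT in granulocytes, by smaller amounts. BNBD-4, a neutrophil beta-defensin, read intensities of 902, 1263, 1206 and 1161 with PBS and of 322, 352, 329 and 316 with IFNT. Its level fell from -0.19 ± 0.15 to -1.88 ± 0.02 (SD, n = 4 each), a log2 change of -1.69 ± 0.07 (SE; limma, adjusted p = 3.2e-07). EBD, a beta-defensin first found in intestinal epithelium, went from 466, 626, 597 and 492 to 187, 196, 208 and 172, a log2 change of -1.43 ± 0.12 (SE; limma, adjusted p = 2.6e-05). The BNBD-5 probe, for another neutrophil beta-defensin, had the smallest change, from 655, 963, 951 and 912 to 389, 455, 416 and 390, or -0.98 ± 0.08 (SE; limma, adjusted p = 1.7e-05). For none of the 3 did the groups overlap, and they ranked 18, 31 and 105 among the called falls in the order given here.

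**Figure D2:**
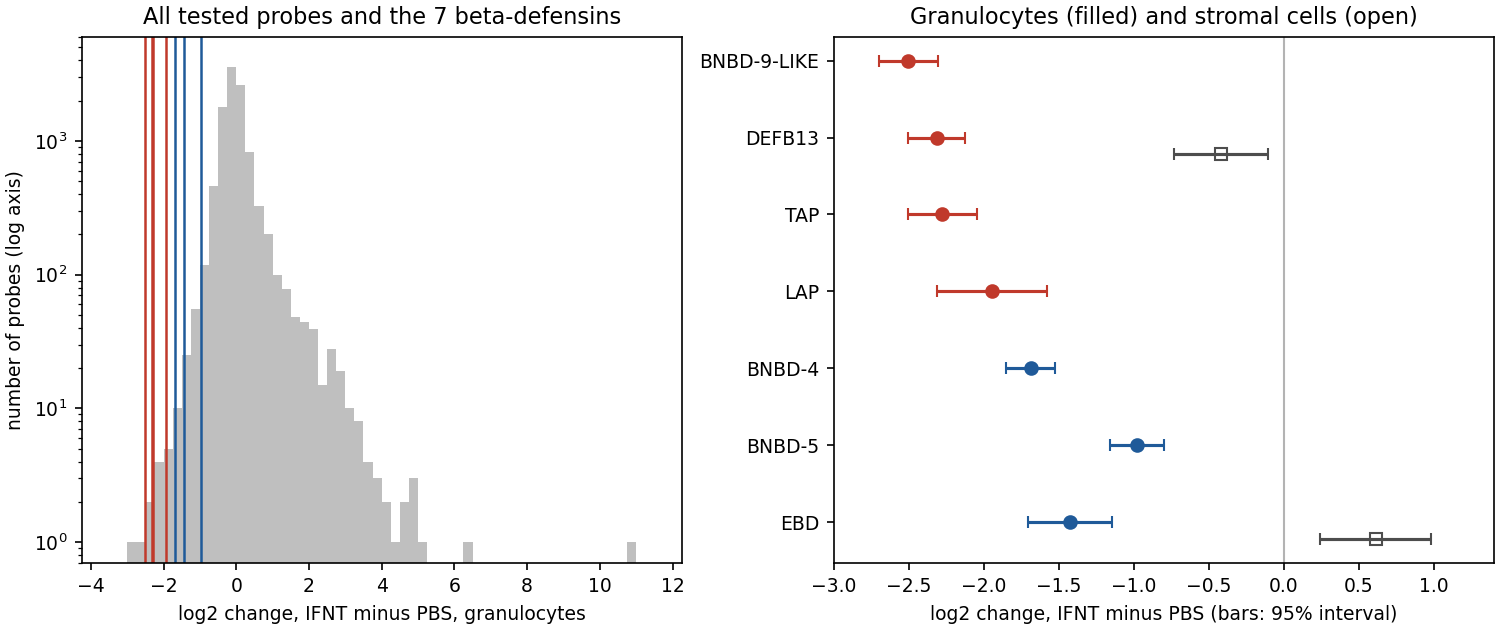
The left panel counts all 10379 probes tested in granulocytes by log2 change, IFNT minus PBS (log vertical axis), with red lines at BNBD-9-LIKE, DEFB13, TAP and LAP and blue lines at BNBD-4, BNBD-5 and EBD, all on the lower side of the distribution. The right panel gives each change with its 95% interval in granulocytes (filled circles) and, for the 2 probes tested there, in BES (open squares), where DEFB13 was at -0.42 and EBD at 0.61.

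The sizes of the 4 falls were compared with each other in 6 pairs, with an exact two-sided permutation test of the difference between probes on each array, over 70 splits of the 8 arrays. The smallest p that this design allows is 0.0286. Each difference is between readings of different probes, and whether the transcripts themselves fell by different amounts was not tested. BNBD-9-LIKE fell further than DEFB13 by 0.19 on the log2 scale, a difference of -0.19 ± 0.04 (SE; exact p = 0.0286, adjusted over 6 pairs 0.0429). It fell further than TAP, with a difference of -0.23 ± 0.05 (SE), and further than LAP, with a difference of -0.56 ± 0.14 (SE), at the same exact p and adjusted p of 0.0429. DEFB13 fell further than LAP, with a difference of -0.37 ± 0.12 (SE; adjusted exact p = 0.0429). For DEFB13 and TAP the difference was -0.04, with a 95% interval of -0.18 to 0.10 (exact p = 0.6). For TAP and LAP it was -0.33, with a 95% interval of -0.75 to 0.09 (exact p = 0.0571, adjusted 0.0686). The pairs that include BNBD-9-LIKE rest on the low-gain readings described above.

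Within each granulocyte group the probes also varied together. Sample 3 had the highest level of every one of the 4 genes both with PBS and with IFNT. After each group mean was subtracted, levels over the 8 arrays correlated between the 4 genes with r from 0.61 for TAP and LAP to 0.92 for BNBD-9-LIKE and DEFB13. Over all the beta-defensin probes r ran from 0.50 for LAP and EBD to 0.97 for BNBD-9-LIKE and BNBD-4. The longest runs shared by these pairs were 11 and 4 bases. BNBD-9-LIKE had r of 0.87 with EBD (run of 15 bases) and of 0.69 with LAP (run of 17 bases). Genes outside the family, given below, had r as high with the mean of the 4. These correlations are descriptions over 8 arrays that share a scaling and a slide, and the cause of the shared pattern was not tested.

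**Figure D3:**
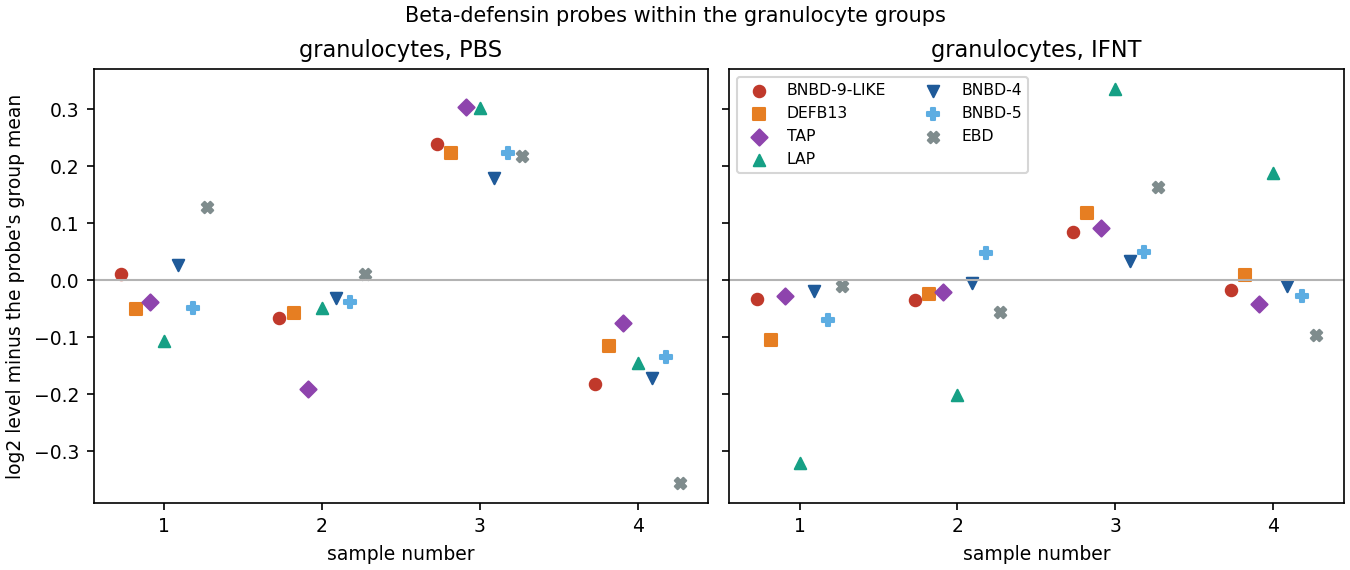
Log2 level minus the probe's group mean (vertical axis) for the 7 beta-defensin probes in granulocyte samples 1 to 4 (horizontal axis), with PBS in the left panel and IFNT in the right panel. In the PBS panel all 7 probes of sample 3 lie above 0, and LAP has the widest spread in the IFNT panel.

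The genes most like the 4 were those whose levels over the 8 granulocyte arrays had the highest Pearson correlation with the mean of the 4, among probes with a gene symbol. These were DDX55 (an RNA helicase), CXCR4 (the chemokine receptor that holds neutrophils in the bone marrow), NCOA4 (the receptor for ferritin turnover), PIH1D1 (a cochaperone subunit) and PPP2CA (the catalytic subunit of protein phosphatase 2A), each with r of 1.00 after rounding. Apart from CXCR4, whose log2 change was -2.02 ± 0.10 (SE), they changed far less than the beta-defensins, from -0.71 ± 0.04 (SE) for NCOA4 to -0.48 ± 0.04 (SE) for PPP2CA. Of 10369 probes with a value on every array, 125 had r of at least 0.99, and all 125 fell. An r over arrays of both groups includes the gap between the groups. A probe with so high an r to genes picked for their fall had to fall too, so that count is no separate result. With group means removed, r was 0.94 for DDX55, 0.92 for CXCR4 and 0.80 for PPP2CA.

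Only DEFB13 of the 4 genes could be tested in BES, and it was not called. Of 11309 probes tested there, 3.66% were called, 2.29% as higher and 1.37% as lower. DEFB13 was well above background on all 6 arrays, with levels of -6.70, -6.41 and -6.79 in the PBS samples and of -6.97, -6.93 and -7.27 in the IFNT samples. The IFNT samples were all lower, as was the case for 21% of 11302 probes in BES. The means were -6.64 ± 0.20 and -7.06 ± 0.19 (SD, n = 3 each). The log2 change of -0.42 ± 0.13 (SE), with a 95% interval of -0.73 to -0.11, missed the threshold (limma, adjusted p = 0.124). The intensities, 19.0 to 30.6, were near the lowest that the software called well above background on BES arrays, 12.4 to 24.0. BNBD-9-LIKE was well above background on 1 of 3 PBS arrays and 1 of 3 IFNT arrays, with intensities of 10.2 to 16.8, and was not tested. TAP, LAP, BNBD-4 and BNBD-5 were not well above background on any BES array.

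EBD, like DEFB13, was well above background on all BES arrays. Its levels there were -4.31, -4.61 and -3.99 with PBS and -3.76, -3.57 and -3.74 with IFNT. The IFNT samples were all the higher ones, opposite to granulocytes, as was the case for 12.5% of the probes in BES. The means were -4.30 ± 0.31 and -3.69 ± 0.11 (SD, n = 3 each), a log2 change of 0.61 ± 0.15 (SE) with a 95% interval of 0.24 to 0.98, and the adjusted p of 0.0867 (limma) missed the threshold. It passed in limma without PBS sample 3, with a change of 0.77 (adjusted p = 0.0273), but row and treatment cannot be told apart in the arrays that remain. With the array row as a covariate the change was 0.30 (limma, adjusted p = 0.539). The LAP and BNBD-9-LIKE probes, the closest to it in sequence, were on the same arrays not well above background (LAP) or so on 2 of 6 (BNBD-9-LIKE). Of the epithelial markers, 1 of 9 tested in BES rose with IFNT and none fell, against 2.29% and 1.37% of all probes tested there. Their summed level was 244 to 275 times the 75th percentile with PBS and 251 to 255 times with IFNT.

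The difference between the responses of the cell types was tested in 1 limma fit over all 14 arrays, where 26.5% of 12046 probes were called and 14.8% were called with a lower response in granulocytes. For DEFB13 the granulocyte response was lower than the BES response by a log2 difference of -1.89 ± 0.16 (SE; limma, adjusted p = 3.6e-06). Its BES intensities with PBS, 27.8 to 30.6, were near the lowest called well above background there, 12.4 to 24.0. A fall of the granulocyte size could not have been measured in BES, so this difference does not show that BES respond less. For EBD the difference was -2.04 ± 0.21 (SE; limma, adjusted p = 2.1e-05). BNBD-9-LIKE, TAP, LAP, BNBD-4 and BNBD-5 entered this fit through granulocytes alone, and their BES values were mostly or all not well above background, so no difference is given for them.

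All 4 genes were higher in granulocytes than in BES under PBS, in a contrast that called 91.7% of probes, 46.7% as higher and 45% as lower in granulocytes. BNBD-9-LIKE, TAP and LAP entered this contrast through granulocytes alone. For them the direction follows from the filter and is not set against that share. DEFB13 differed by 8.50 ± 0.11 (SE) on the log2 scale, or 363-fold (limma, adjusted p = 8.4e-16). TAP was at least 165-fold and LAP at least 101-fold higher. These bounds set the granulocyte mean against the lowest signal that each BES array measured above background, or the probe's own where that was higher. They are bounds for scaled levels only. The 75th percentile used for scaling was an intensity of 1009 to 1491 on granulocyte arrays and 2564 to 3173 on BES arrays. Folds between the cell types are therefore smaller in unscaled intensity. BNBD-9-LIKE, measured on 1 of 3 BES arrays, was at least 6074-fold higher by the same reckoning, with the granulocyte readings taken at low gain. EBD was the nearest of the family between the cell types, 8.34-fold higher in granulocytes. With IFNT the bounds were at least 1079-fold for BNBD-9-LIKE, at least 34.0-fold for TAP and at least 26.0-fold for LAP, so that each gene kept the same order over the 4 groups, with PBS granulocytes first, IFNT granulocytes next and BES last. With normexp background correction, which adds an offset of 50 before the log, the PBS difference of DEFB13 was 6.77 on the log2 scale.

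Other antimicrobial peptides and proteins of granulocytes are given for comparison. Of 41 listed genes, 22 were measured, of which 7 rose and 1 fell in granulocytes, where 17.2% of all probes tested rose and 27.4% fell. Their median log2 change was 0.08, against -0.05 over all probes tested. The cathelicidin CATHL6 rose by 1.54 ± 0.05 (SE), CATHL2 by 1.33 ± 0.09 (SE) and lactoferrin (LTF), an iron-binding granule protein, by 1.00 ± 0.06 (SE). Of the other cathelicidins tested, CAMP was called higher, with a change of 0.26. CATHL1, CATHL3, CATHL4 and CATHL5 were not called, with changes of 0.06, 0.08, 0.12 and 0.27. The gelatinase MMP9 was the gene that fell, with a change of -0.56 ± 0.05 (SE). In BES, 12 of the genes were tested and none passed, which for so few genes is near the 3.66% of all probes called there.

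Genes that feed the Toll-like receptor and interleukin-1 pathway into NF-kB went in both directions, as did the probes as a whole. Of 35 listed genes, 22 were measured in granulocytes, of which 7 rose and 8 fell (17.2% and 27.4% over all probes), with a median of -0.16. The lipopolysaccharide receptor TLR4 rose by 1.85 ± 0.05 (SE) and its coreceptor CD14 by 1.03 ± 0.07 (SE). The interleukin-1 decoy receptor IL1R2 changed by -0.59 ± 0.05 (SE) and the adaptor TRAF6 by -0.43 ± 0.04 (SE), both lower. In BES, none of 18 tested passed, which for so few genes is near the 3.66% of all probes called there.

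Among NF-kB, C/EBP and AP-1 factors and NF-kB inhibitors, 13 of 27 listed genes were measured in granulocytes, of which 2 rose and 5 fell, with a median of -0.17. With so few genes, these counts are near the 17.2% and 27.4% of all probes. The inhibitor NFKBIB changed by -0.73 ± 0.05 (SE) and TNIP1, another brake on NF-kB, by -0.73 ± 0.06 (SE). The stress-induced factor ATF3 rose by 0.47 ± 0.05 (SE), and NFKBIZ, a nuclear regulator of NF-kB, by 0.38 ± 0.05 (SE). In BES 2 of 13 rose and none fell, against 2.29% and 1.37% of all probes tested there. Of the 6 genes listed for the vitamin D response, which can drive antimicrobial peptide genes, 2 were measured. CYP27B1, which makes the active hormone, rose by 0.16 ± 0.05 (SE; limma, adjusted p = 0.0293), and the receptor partner RXRA had a change of -0.19 ± 0.08 (SE; limma, adjusted p = 0.0915) that missed the threshold.

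Of the chemokine receptors that beta-defensins can engage and their ligand, 1 of 3 genes, the ligand CCL20, had a named probe. It was well above background on 4 of 4 PBS and 0 of 4 IFNT granulocyte arrays, a fall of at least 1.55-fold.

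**Figure D4:**
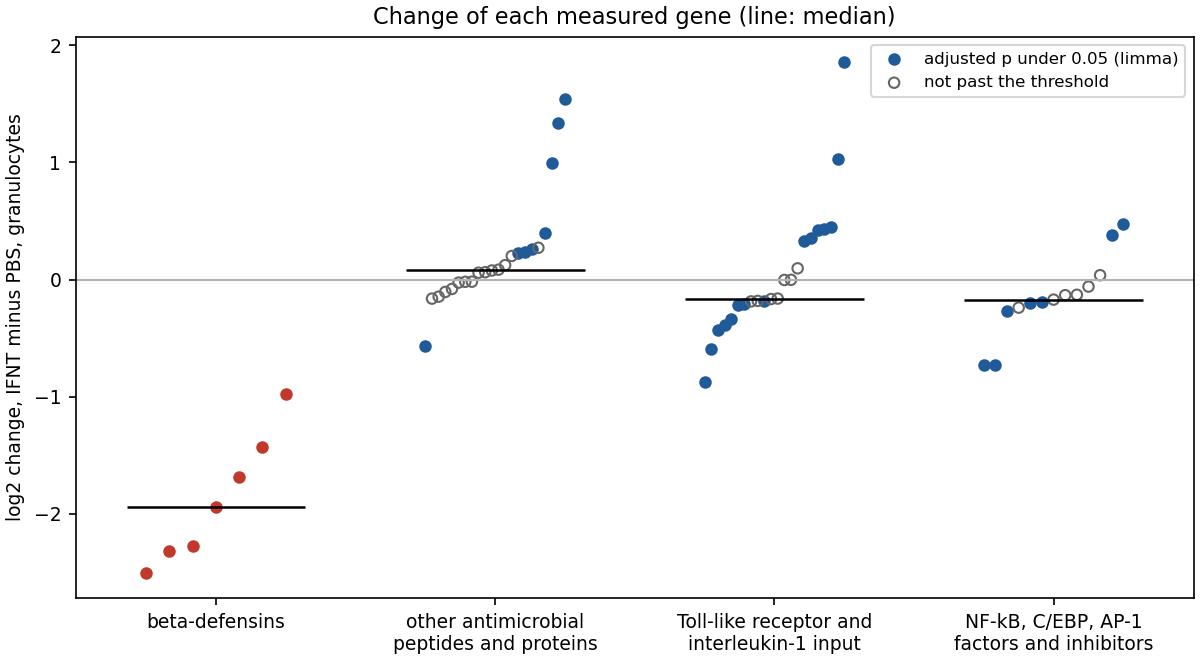
Log2 change in granulocytes, IFNT minus PBS (vertical axis), of the 7 beta-defensin probes (red) and of each measured gene in 3 lists, with filled blue circles for an adjusted p under 0.05 in limma, open circles for genes past no threshold, and lines at the medians. The beta-defensins, picked out for their fall, lie at -0.98 and below, while the antimicrobial list has its median at 0.08 and the lists of NF-kB input and factors at -0.16 and -0.17.

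Markers of the labelled and of other cells were measured beside the granulocyte fall, and their counts stand against 17.2% of all probes rising and 27.4% falling. The sums are of linear levels, so the brightest gene weighs most, as CD68 for monocytes, VIM for stroma and ALOX15 for eosinophils. They do not measure cell numbers. The summed level of the 12 neutrophil markers was 875 to 1077 times the 75th percentile with PBS and 894 to 972 times with IFNT, with 4 rising and 2 falling. That of the 9 epithelial markers tested of 10 on the array was 19.4 to 29.3 with PBS and 21.7 to 26.4 with IFNT, with 3 rising and none falling, and the epithelial keratin KRT7 was not well above background on any array. The neutrophil and epithelial sums therefore overlapped between the groups. Both eosinophil markers on the array, CCR3 and ALOX15, fell, and their sum was 13.7 to 14.5 with PBS and 10.6 to 12.1 with IFNT. The sum of 8 monocyte markers was 29.1 to 31.4 with PBS and 27.4 to 28.4 with IFNT, with 4 rising and 2 falling. The part of eosinophils or monocytes in the beta-defensin values was not tested. For T and NK cells 1 of 10 rose and none fell, with sums of 15.3 to 17.2 and 15.8 to 16.8. For B cells 2 of 4 rose, with sums of 3.01 to 3.26 and 3.47 to 3.71. For platelets and erythroid cells none of 4 rose and 1 fell, with sums of 6.14 to 6.90 and 5.93 to 6.18, and haemoglobin HBB was not well above background on any array. Of 5 stromal markers tested, COL1A1, a collagen chain, rose by 1.42 ± 0.09 (SE; limma, adjusted p = 5.0e-06), and none fell, with sums of 25.2 to 27.3 over the 8 arrays that overlapped between the groups. COL1A2, COL3A1, LUM and PDGFRA were not well above background on any granulocyte array. Of 3 endothelial and smooth muscle markers tested, CNN1, a smooth muscle calponin, rose and none fell, with sums of 0.175 to 0.261 and 0.239 to 0.286. CNN1 was well above background on 0 of 4 PBS and 4 of 4 IFNT arrays.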

How the data were processed

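Total RNA was labelled with Cy3 and hybridised to 14 arrays. The deposited scanner files hold intensity per spot, corrected for background by Agilent Feature Extraction 9.5, per the submitters' processing notes. The authors' deposited value table holds log2 values equal to the log2 processed signal minus 1 constant per array, as checked against the scanner values.

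Processed signal was taken to log2 and each array's 75th percentile subtracted, without control spots and outlier flags. Probes well above background on at least 3 (BES) or 4 (granulocytes) arrays were tested, in either cell type for contrasts between them. Comparisons used limma 3.58.1 (R 4.3.3), two-sided, threshold 0.05, after a test of the scripts on simulated data. Permutation tests used scipy 1.17.1. Symbols came from the RefSeq table of ARS-UCD2.0 (6118 probes named, 9090 not), and each listed gene was represented by its tested probe with the highest mean. The text names every beta-defensin probe, up to 4 genes per list with the smallest p, and the 5 genes most like the members. The other cathelicidins tested are named as well. Members and lists were chosen with earlier results of these data known. Marker lists outside these rules are given by counts, with single genes chosen after their values were seen. Alternatives covered background correction, scaling, the filter, the source of values, the variance prior, a replicate block, array row, the arrays in the fit and leaving out each sample. Each gene had 1 probe, so averaging probes was not possible. The genome build of the probes is not given in the sources used here, so no coordinates are stated, and the chromosome and gene order are those of the RefSeq table.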

Additional observations from a re-analysis of the deposited data

Results flagged for a closer look

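In the IFNT granulocytes, sample 3 stood apart from the other 3 samples for 2 probes. Its BNBD-9-LIKE level was 2.73, with a gap to its nearest neighbour of 0.844 of the group's whole range. Its TAP level was -2.29, with a gap of 0.843 of the range. These were 2 of 14 groups examined, and a gap of that size arises by chance in about 5% of groups.

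The response to IFNT differed between granulocytes and BES, by the interaction test in limma, for both probes that were measured on all arrays of both cell types. The log2 difference, granulocytes minus BES, was -1.89 for DEFB13 and -2.04 for EBD. DEFB13 was near background in BES, where a fall of the granulocyte size could not have been measured.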

How the results depend on the processing

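In granulocytes, each of the 7 beta-defensin probes was called lower under all 16 alternatives run for it, with log2 changes of -2.56 to -2.42 for BNBD-9-LIKE, -2.35 to -2.23 for DEFB13, -2.34 to -1.98 for TAP and -2.06 to -1.61 for LAP. In BES, DEFB13 passed under none (-0.50 to -0.16), and EBD passed with normexp (0.44), with an intensity trend and robust prior (0.61) and without PBS sample 3 (0.77). The count called in BES, 414, was 189 with no filter, 1011 with the trend and robust prior, 149 with array row as a covariate, and 199 to 625 on leaving out 1 sample, highest without PBS sample 3. Leaving out 1 sample gave 4047 to 4669 calls in granulocytes, 2696 to 3329 for the difference of responses and 10863 to 11015 between cell types under PBS. The DEFB13 and EBD differences of response kept their calls in all 14 of these fits. Whether replicate numbers pair the samples is not given. Between PBS and IFNT samples of the same number, r of deviations was -0.12 to 0.20, which does not settle it. With the numbers as a replicate block 4674 probes were called in granulocytes, 318 in BES, 3399 for the difference and 11049 between cell types. All 4 genes were then called in granulocytes, and DEFB13 was not called in BES. Causes of these shifts were not tested. Few arrays and BES signals near background limit what could be measured there.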
